A study of Mus musculus with 15 samples.

Results

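Livers of mice on a high-fat diet that were given resmetirom (HFD-Res, libraries 29, 30 and 34) were compared with livers labelled HFD-NS (libraries 12, 13 and 16), whose label gives the same diet and, besides the letters NS, no agent. These 6 libraries were taken by their labels from 15 mouse liver libraries of polyadenylated RNA, and the comparison covers 13189 genes with enough counts of the 26264 in the table. The other 3 groups of 3 libraries are SD-NS, HFD-337 and HFD-338. The series text describes a dietary model of steatotic liver disease (MASLD) and, in a separate arm, knockdown of the kinase STK25 with the agent Gc337. Res is read as resmetirom and 337 as Gc337 from that text. The labels spell out neither SD, NS nor 338, and dose, duration, sex, strain and age are not given in the sources used here. No transgene or gene deletion is named in any group.

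Resmetirom is a liver-directed agonist of thyroid hormone receptor beta, the product of Thrb and the main thyroid hormone receptor of hepatocytes. Receptors of this class sit on DNA at their target genes, hold them down with corepressors when unliganded and switch to coactivators when hormone or agonist binds. In liver the receptor is known for raising deiodinase, lipogenic enzymes, bile acid synthesis and mitochondrial enzymes. The comparison addresses how livers under this agent differed from HFD-NS livers on the same diet.

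HFD-Res libraries were shallower than HFD-NS libraries, with 4637933, 4173224 and 6814824 counts against 8762163, 8030651 and 9797743 counts. The Pearson correlation of log2 CPM, the TMM-scaled and library-size-normalised count, across genes was 0.980 to 0.983 between HFD-Res libraries and 0.983 to 0.986 between HFD-NS libraries, against 0.950 to 0.960 between the groups. All 14 hepatocyte markers listed were detected, and their summed level was 101999 to 110693 CPM in HFD-Res livers and 144537 to 157622 CPM in HFD-NS livers. Of the 14, 5 were called lower, 1 was called higher and 8 were not called. Alb, named for its weight in that sum, took 5.44% to 6.04% of counts in HFD-Res libraries and 7.83% to 8.69% in HFD-NS libraries. The labels do not say more of the origin of the replicates than their numbers, so p-values measure the spread between these samples, and in bulk liver fewer cells of a type and less RNA per cell cannot be told apart.

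Between the groups 1709 genes, 13% of those tested, differed at an adjusted p under 0.05. Unless another tool or setting is named, adjusted p-values come from edgeR's quasi-likelihood test with Benjamini-Hochberg adjustment over all genes tested. In HFD-Res livers 820 genes (6.22%) were higher and 889 (6.74%) were lower, and 305 of the rises and 276 of the falls were at least 2-fold. The median log2 fold change of all genes was 0.01. Of the called genes, 1678 had no overlap between the 3 values of each group, as had 4049 (30.7%) of all genes tested. Leaving out HFD-Res library 34, the deepest of its group, left 1134 called genes, of which 581 were higher and 553 lower.

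**Figure D1:**
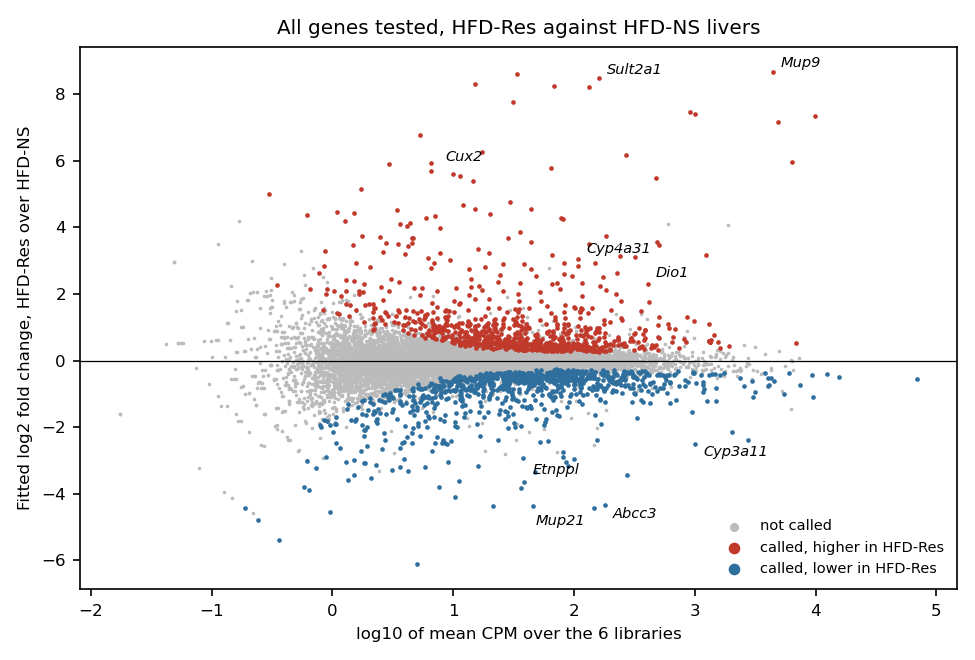
Fitted log2 fold change of HFD-Res over HFD-NS livers (vertical axis) against the log10 of the mean CPM over the 6 libraries (horizontal axis), 1 point per gene tested. The 820 genes called higher are red, the 889 called lower are blue, and the largest rises, among them Mup9 and Sult2a1, lie above a log2 fold change of 8.

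The gene lists described here group genes by known pathway or cell type, and lists can share members. Of 32 pathway lists, cholesterol synthesis and uptake had the highest share of members called higher, followed by female-biased liver genes, interferon-stimulated genes, de novo lipogenesis and thyroid hormone receptor targets. Periportal hepatocyte genes had the highest share called lower.

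**Figure D2:**
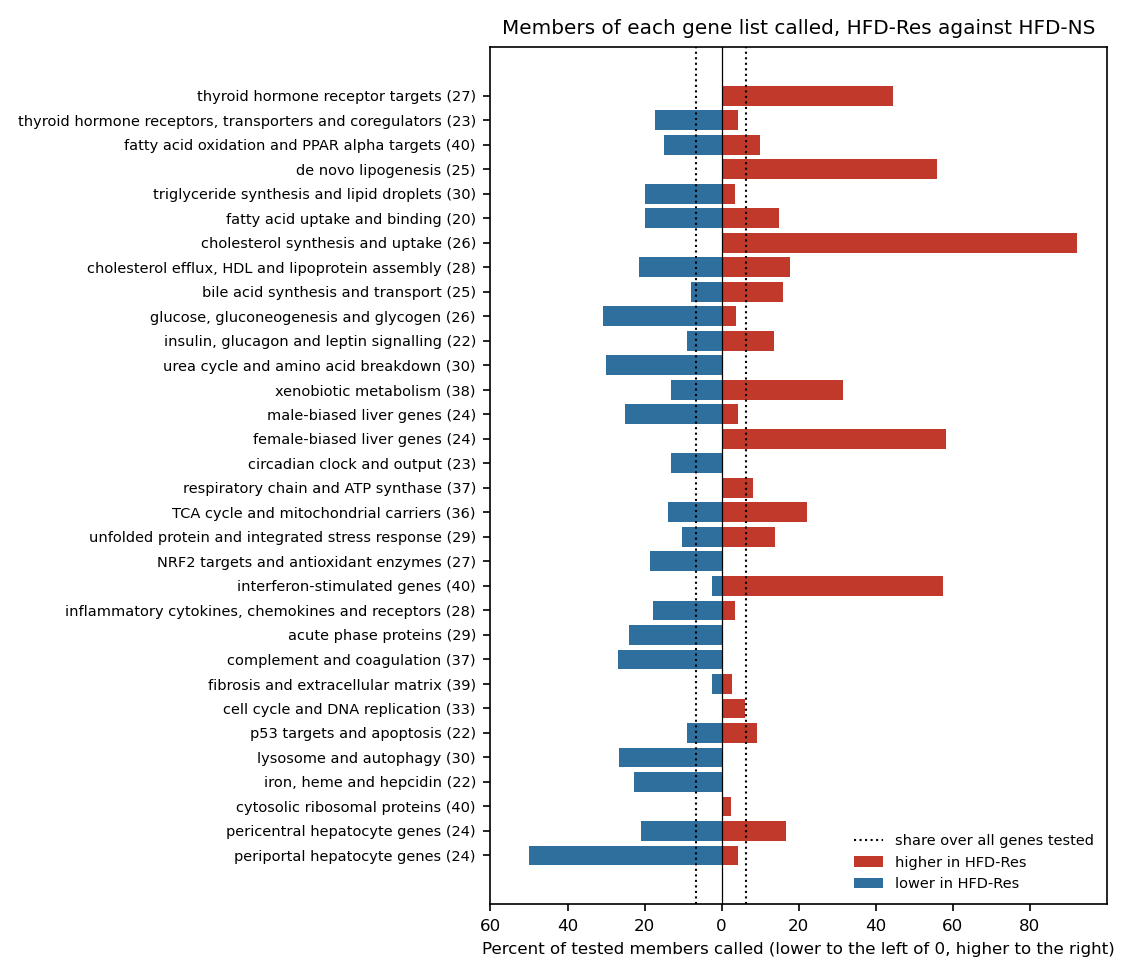
Percent of the tested members of each gene list (cell type marker lists not plotted) that were called lower (blue, left of 0) or higher (red, right of 0) in HFD-Res than in HFD-NS livers, with the number of tested members in brackets and dotted lines at the shares over all genes, 6.74% lower and 6.22% higher. Among the lists plotted, the cholesterol list reaches furthest to the right, with 24 of 26 members higher, and the periportal list furthest to the left, with 12 of 24 lower.

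Known targets of the receptor were higher or did not pass. Of 27 tested genes listed as targets of the thyroid hormone receptor, 12 rose and 0 fell, and their median log2 fold change was 0.82. Fitted values were above 0 for 23 members and below 0 for 4. The lowest was that of Scd1 (-1.46), described with the lipogenic genes below. Over the alternatives the list had 0 to 1 falls. Dio1 (chromosome 4, 107148662 to 107164365 in build mm39) encodes the type 1 deiodinase, which converts thyroxine to triiodothyronine and is the standard readout of the hormone in liver. It had 674, 637 and 725 CPM in HFD-Res livers, against 143, 142 and 124 CPM in HFD-NS livers. The groups did not overlap, and the 3 treated livers lay within a narrow band (log2 fold change 2.32, SE 0.269, adjusted p = 0.000102). Thrsp, a regulator of lipogenesis long known as a thyroid hormone-responsive transcript, had 361, 233 and 475 CPM in HFD-Res livers, against 94.2, 44.6 and 129 CPM in HFD-NS livers. Treated livers were again all higher but more spread (log2 fold change 2.00, SE 0.364, adjusted p = 0.004). Its adjusted p was 0.0775 in a fit of these 2 groups alone. Me1 encodes the cytosolic malic enzyme, which makes NADPH for lipid synthesis. It had 321, 459 and 361 CPM in HFD-Res livers, against 128, 97.1 and 102 CPM in HFD-NS livers (log2 fold change 1.80, SE 0.166, adjusted p = 1.86e-06).

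Mitochondrial targets moved in the same direction. Gpd2, the mitochondrial glycerol-3-phosphate dehydrogenase of the electron shuttle that thyroid hormone is known to raise, had 85.4, 106 and 106 CPM in HFD-Res livers, against 50.4, 46.4 and 43.2 CPM in HFD-NS livers (log2 fold change 1.09, SE 0.117, adjusted p = 2.91e-06). Idh3a, a subunit of the NAD-dependent isocitrate dehydrogenase, had 87.8, 103 and 92 CPM in HFD-Res livers, against 38.1, 35.9 and 30.9 CPM in HFD-NS livers (log2 fold change 1.43, SE 0.123, adjusted p = 1.57e-07). Neither gene's groups overlapped. Fgf21, a hormone that liver secretes under metabolic stress, had 40.3, 94.8 and 69.2 CPM in HFD-Res livers, against 12.4, 9.44 and 5.48 CPM in HFD-NS livers, a mean 7.48 times as high (log2 fold change 2.91, SE 0.432, adjusted p = 0.000952). Other known targets did not pass. Hr, a corepressor, had 3.43, 4.6 and 1.45 CPM in HFD-Res livers, against 3.27, 2.48 and 0.949 CPM in HFD-NS livers (log2 fold change 0.44, adjusted p = 0.729), and Klf9, a transcription factor induced by the hormone in many tissues, had 232, 188 and 259 CPM in HFD-Res livers, against 246, 213 and 245 CPM in HFD-NS livers (log2 fold change -0.05, adjusted p = 0.894). Values of both genes overlapped between the groups.

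The receptors themselves did not pass the test. Thrb (chromosome 14, 4431608 to 4808736) had 56.5, 51.8 and 50.7 CPM in HFD-Res livers, against 42.7, 39.7 and 45.1 CPM in HFD-NS livers. Every treated liver was higher, by a small margin (log2 fold change 0.32, adjusted p = 0.0923), and with limma-voom its adjusted p was 0.0438. Thra, the receptor of heart, brain and muscle that liver also transcribes, had 19.1, 20.2 and 15.7 CPM in HFD-Res livers, against 22.2, 28.1 and 22.1 CPM in HFD-NS livers (log2 fold change -0.41, adjusted p = 0.108). Of 23 tested receptors, hormone transporters and coregulators, 1 rose and 4 fell, with a median log2 fold change of 0.04.

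Genes for moving and carrying the hormone did change. Slc16a10 (MCT10), which carries thyroid hormones and aromatic amino acids across the membrane, was the rise, at 229, 232 and 235 CPM in HFD-Res livers, against 113, 140.3 and 137 CPM in HFD-NS livers (log2 fold change 0.83, SE 0.123, adjusted p = 0.000101). Genes of plasma carriers fell. Serpina7, which encodes thyroxine-binding globulin, had 10.1, 15.9 and 39.8 CPM in HFD-Res livers, against 228, 171 and 131 CPM in HFD-NS livers (log2 fold change -2.95, SE 0.459, adjusted p = 0.00156). Ttr, which encodes transthyretin, had 3849.7, 3306 and 3806 CPM in HFD-Res livers, against 7659, 6542 and 7579 CPM in HFD-NS livers, or 50.3% of the HFD-NS mean (log2 fold change -0.99, SE 0.139, adjusted p = 5.72e-05). Another fall was Hdac3, the deacetylase of the corepressor complex, named after its value was seen (log2 fold change -0.36, adjusted p = 0.0264). Without HFD-Res library 34, 2 members of this list were lower.

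**Figure D3:**
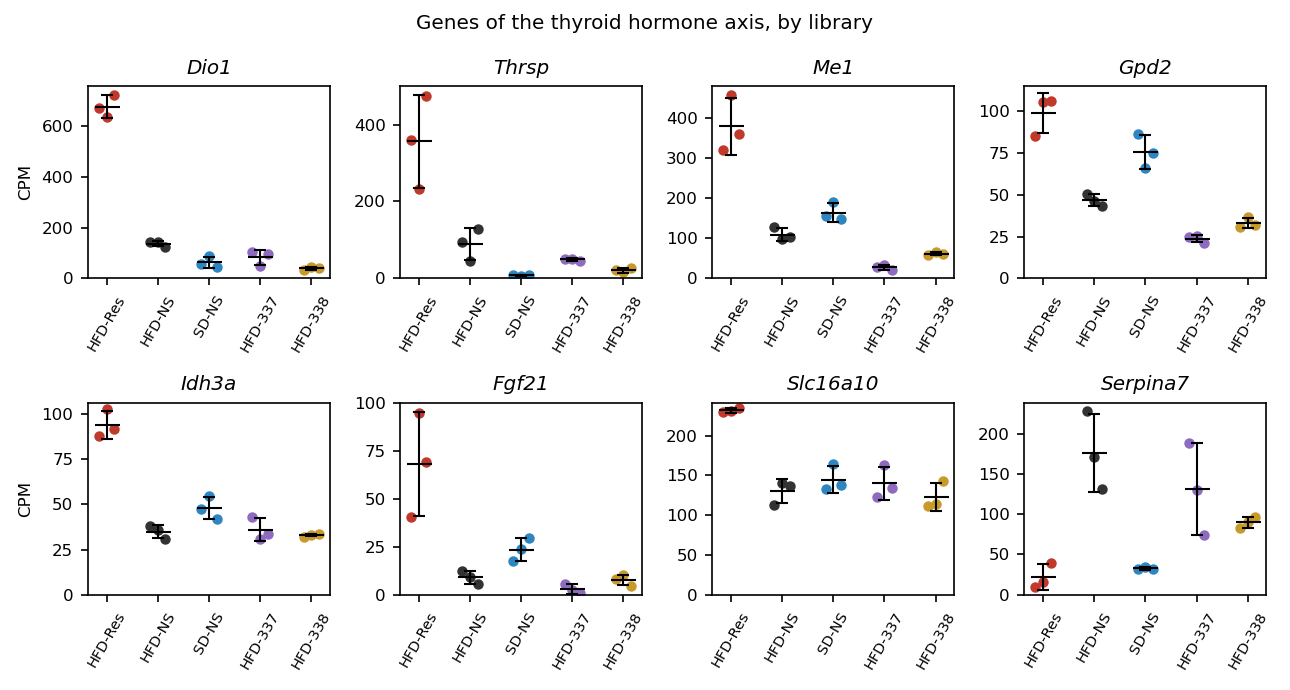
CPM of 8 genes of the thyroid hormone axis in each library (points), with the mean and SD of each group of 3 (horizontal and vertical lines), for HFD-Res, HFD-NS, SD-NS, HFD-337 and HFD-338 livers. Dio1, Thrsp, Me1, Gpd2, Idh3a, Fgf21 and Slc16a10 have their highest mean in HFD-Res livers, while Serpina7 is lower there than in HFD-NS livers.

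Nearly all genes of cholesterol synthesis rose. Of 26 tested genes of cholesterol synthesis and uptake, 24 were higher in HFD-Res livers and 0 lower, with a median log2 fold change of 2.61, and 24 were higher in each of 12 alternative analyses. The members that did not pass were Ebp (log2 fold change 0.05, adjusted p = 0.828), an isomerase late in the pathway, and Mylip (log2 fold change 0.37, adjusted p = 0.251), a ubiquitin ligase of lipoprotein uptake; both are named because they are the exceptions. The pathway runs from acetyl-CoA to mevalonate, then to squalene and to sterols, and its genes are known to be switched on together by SREBP2, the product of Srebf2, when membrane sterol is low.

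Enzymes along the pathway rose. Pmvk, a kinase between mevalonate and squalene, had 76.9, 98 and 74 CPM in HFD-Res livers, against 15.8, 12.8 and 14 CPM in HFD-NS livers (log2 fold change 2.54, SE 0.139, adjusted p = 2.76e-10). Fdft1, squalene synthase, had 385, 483 and 310.3 CPM in HFD-Res livers, against 66, 68.8 and 56.3 CPM in HFD-NS livers (log2 fold change 2.62, SE 0.135, adjusted p = 1.12e-10); 20.9% of its exon length overlaps another gene, and reads there count for both. Nsdhl, a sterol dehydrogenase near the end, had 193, 216 and 164 CPM in HFD-Res livers, against 31.8, 24.6 and 24.2 CPM in HFD-NS livers (log2 fold change 2.83, SE 0.12, adjusted p = 4.4e-12). In none of these 3 genes did any HFD-NS liver reach the level of a treated liver.

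The regulator Srebf2 rose as well. It had 46.7, 59.3 and 46.9 CPM in HFD-Res livers, against 24.1, 28.9 and 24.8 CPM in HFD-NS livers (log2 fold change 0.97, SE 0.123, adjusted p = 1.97e-05), without overlap between the groups.

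**Figure D4:**
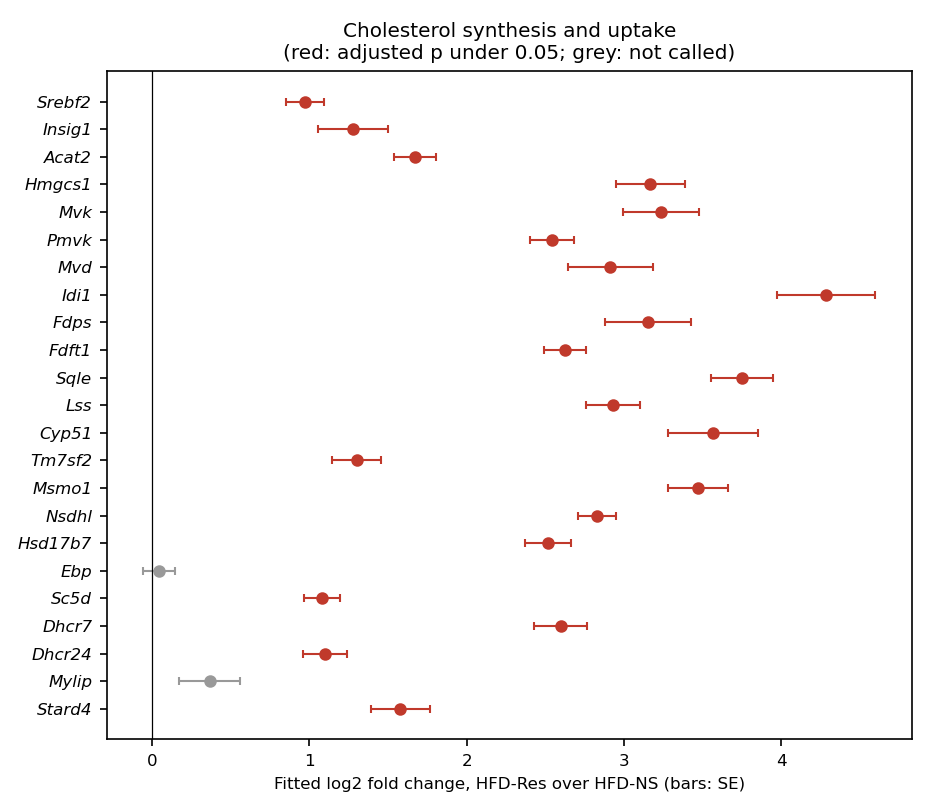
Fitted log2 fold change of HFD-Res over HFD-NS livers with its SE (bars) for 23 of the 26 tested genes of cholesterol synthesis and uptake, with regulators at the top, synthesis below in pathway order, and Mylip and Stard4 last. The red genes passed the test, and the grey genes, Ebp and Mylip, did not.

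Promoters of the cholesterol list were read from RefSeq windows of 250 bases before to 50 after a start, on build GRCm38.p6, whereas the counts were made on mm39. Of the list, 19 genes had a window, of which 16 were called higher. The core of the sterol regulatory element as first described, TCACNCCAC on either strand, was present in the windows of 1.44% of 27025 genes and in 1 of those 16, Hmgcs1. The CCAAT box, CCAAT on either strand and the known site of NF-Y, a frequent partner of SREBP at sterol-regulated promoters, was present in 41.1% of all genes with a window, 46.1% of those called higher, 44.7% of those called lower and 15 of the 16. The 3 list members with a window that were not called higher, Ebp, Mylip and the untested Npc1l1, also hold it. The second motif was searched after the result of the first was seen, and windows with no match say nothing about binding. The stretch before the start of Hmgcs1 (chr13:119690101-119690350, plus strand, 250 bases) is shown because it holds both motifs. Those of Nsdhl (chrX:72918401-72918520, plus strand), Idi1 (chr13:8885486-8885605, plus strand), Mvd (chr8:122443423-122443542, minus strand) and Lss (chr10:76531485-76531604, plus strand), 120 bases each, are shown because they carry the shared box close to the start. Matches are in capitals, and ATTGG is CCAAT on the other strand. Apart from Nsdhl these genes were chosen after their values were seen.
Hmgcs1: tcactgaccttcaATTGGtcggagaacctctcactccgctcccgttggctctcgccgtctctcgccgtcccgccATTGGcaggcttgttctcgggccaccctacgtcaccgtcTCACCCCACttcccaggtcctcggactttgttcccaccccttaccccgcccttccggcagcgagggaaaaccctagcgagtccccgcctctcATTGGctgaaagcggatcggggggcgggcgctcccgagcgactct
Nsdhl: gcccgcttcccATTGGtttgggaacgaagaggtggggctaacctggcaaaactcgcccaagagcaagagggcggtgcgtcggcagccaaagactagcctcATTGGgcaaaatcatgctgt
Idi1: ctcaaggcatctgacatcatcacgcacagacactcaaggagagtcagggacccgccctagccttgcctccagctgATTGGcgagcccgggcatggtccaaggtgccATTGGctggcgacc
Mvd: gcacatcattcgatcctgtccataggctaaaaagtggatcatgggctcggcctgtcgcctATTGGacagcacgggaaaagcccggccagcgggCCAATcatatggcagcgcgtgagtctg
Lss: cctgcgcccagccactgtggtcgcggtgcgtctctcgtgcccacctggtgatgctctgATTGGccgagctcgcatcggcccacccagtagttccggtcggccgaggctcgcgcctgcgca
The genes with these promoters had log2 fold changes of 3.17 for Hmgcs1, 2.83 for Nsdhl, 4.28 for Idi1, 2.91 for Mvd and 2.93 for Lss. Reads of Idi1 may be split with its pseudogene copy, so its value is uncertain.

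Genes for the export of cholesterol into bile also rose. Abcg5 and Abcg8 encode the partner subunits of the canalicular sterol transporter and lie head to head on chromosome 17. Abcg5 had 197, 148 and 148 CPM in HFD-Res livers, against 45.1, 66.2 and 63.9 CPM in HFD-NS livers (log2 fold change 1.49, SE 0.211, adjusted p = 0.000343). Abcg8 had 176, 148 and 151 CPM in HFD-Res livers, against 53.8, 62.3 and 80 CPM in HFD-NS livers (log2 fold change 1.27, SE 0.161, adjusted p = 4.72e-05). Both genes were without overlap between the groups. Of 28 tested genes of cholesterol efflux, HDL and lipoprotein assembly, 5 rose and 6 fell, and the median log2 fold change was -0.07. Mttp, which loads lipid onto nascent apolipoprotein B, was higher at 529.7, 576 and 553 CPM in HFD-Res livers, against 436, 366 and 397 CPM in HFD-NS livers (log2 fold change 0.47, adjusted p = 0.00324). The apolipoproteins Apoa2 (log2 fold change -0.74, adjusted p = 0.00196) and Apoc1 (log2 fold change -0.76, adjusted p = 0.000848) were lower. Apoa1, the main protein of HDL, had 8254, 6472 and 8040.3 CPM in HFD-Res livers, against 7189, 6465 and 7674 CPM in HFD-NS livers (log2 fold change 0.09, adjusted p = 0.693), with overlapping values. Apob, the protein of VLDL and LDL, had 5673, 6629 and 5294 CPM in HFD-Res livers, against 7456, 7470.1 and 6651 CPM in HFD-NS livers and did not pass (log2 fold change -0.29, adjusted p = 0.116).

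Genes of fatty acid synthesis rose in HFD-Res livers, while the desaturase Scd1 did not pass. Of 25 tested lipogenic genes, 14 were higher and 0 lower, with a median log2 fold change of 0.56. Fasn, fatty acid synthase, had 255, 388 and 257 CPM in HFD-Res livers, against 86.6, 52.5 and 69 CPM in HFD-NS livers (log2 fold change 2.11, SE 0.192, adjusted p = 4.27e-06). Fads2, the delta-6 desaturase of polyunsaturated fatty acids, had 956, 921 and 837 CPM in HFD-Res livers, against 487, 435 and 478 CPM in HFD-NS livers (log2 fold change 0.95, SE 0.101, adjusted p = 2.6e-06). For both genes every treated liver was above every HFD-NS liver. Scd1, the delta-9 desaturase that makes oleate, had 2514, 3717 and 3884 CPM in HFD-Res livers, against 10985, 5140.3 and 11685 CPM in HFD-NS livers. The treated livers all lay below, but HFD-NS livers were widely spread and the difference did not pass (log2 fold change -1.46, adjusted p = 0.138), while DESeq2 gave an adjusted p of 0.0329. Srebf1, which encodes the insulin-driven activator of lipogenesis, had 22.5, 25.3 and 22.4 CPM in HFD-Res livers, against 17.6, 26.4 and 42 CPM in HFD-NS livers, overlapped and did not pass (log2 fold change -0.30, adjusted p = 0.571).

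Genes of triglyceride storage went down more often than up. Of 30 tested genes of triglyceride synthesis and lipid droplets, 6 fell and 1 rose, with a median log2 fold change of -0.11. Hsd17b13, a droplet protein of hepatocytes linked to steatohepatitis in people, had 376, 361 and 369 CPM in HFD-Res livers, against 694, 658 and 611 CPM in HFD-NS livers (log2 fold change -0.83, SE 0.117, adjusted p = 6.4e-05). Its neighbour Hsd17b11 (log2 fold change -0.70, adjusted p = 0.000759) and Gpat4, a first-step acyltransferase of glycerolipid synthesis (log2 fold change -0.54, adjusted p = 0.000858), were also lower. Cidea, which helps fuse droplets and is scarce in lean liver, had 1.5, 1.84 and 1.74 CPM in HFD-Res livers, against 43.1, 4.1 and 15.1 CPM in HFD-NS livers. HFD-NS libraries differed widely among themselves for this gene, and the fall (log2 fold change -3.60, adjusted p = 0.0282) was lost on leaving out HFD-NS library 12 or any HFD-Res library (adjusted p up to 0.109) and in a fit of these 2 groups alone or with limma-voom (0.161 and 0.263). Cidec, another droplet fusion protein, had 17.1, 8.97 and 16.3 CPM in HFD-Res livers, against 74.8, 46.3 and 40.6 CPM in HFD-NS livers. Its groups were apart but the difference missed the threshold (log2 fold change -1.91, adjusted p = 0.0577), which it passed with DESeq2 (adjusted p = 0.00985), limma-voom and the 2-group fit. The rise was Mgll, monoglyceride lipase, at 438, 573 and 503 CPM in HFD-Res livers, against 306, 238 and 252 CPM in HFD-NS livers (log2 fold change 0.93, SE 0.132, adjusted p = 6.79e-05). Plin2, the general droplet coat of hepatocytes, had 887, 666 and 806 CPM in HFD-Res livers, against 793, 807 and 562 CPM in HFD-NS livers and overlapped (log2 fold change 0.13, adjusted p = 0.701).

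Fatty acid handling split by gene. Of 20 tested genes of uptake and binding, 3 rose and 4 fell, with a median log2 fold change of -0.16. Acsl1, the main long-chain acyl-CoA synthetase of hepatocytes, had 941, 861 and 912 CPM in HFD-Res livers, against 2590.3, 1719 and 1942 CPM in HFD-NS livers (log2 fold change -1.20, SE 0.161, adjusted p = 4.1e-05). Acsl3, a synthetase of the same family that resides on nascent droplets, moved the other way at 43.9, 63 and 38.1 CPM in HFD-Res livers, against 14, 19.6 and 15.5 CPM in HFD-NS livers (log2 fold change 1.55, SE 0.182, adjusted p = 1.18e-05); 10.6% of its exon length overlaps another gene. Vldlr (log2 fold change -2.50, adjusted p = 0.00418) and the transporter Slc27a1 (log2 fold change -1.56, adjusted p = 5.51e-05) were lower, and the endothelial lipase Lipg (log2 fold change 1.11, adjusted p = 0.00218) was higher.

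Fatty acid oxidation did not move as a block. Of 40 tested oxidation genes and PPAR alpha targets, 4 rose and 6 fell, and the median log2 fold change was -0.09. Cpt1a, the gate for entry into mitochondria and listed as a thyroid hormone target in rodents, had 761, 589 and 568 CPM in HFD-Res livers, against 544, 638 and 559 CPM in HFD-NS livers, overlapped and did not pass (log2 fold change 0.14, adjusted p = 0.502). Acadm, medium-chain acyl-CoA dehydrogenase, had 554, 436 and 442 CPM in HFD-Res livers, against 778, 780.5 and 745 CPM in HFD-NS livers (log2 fold change -0.69, SE 0.131, adjusted p = 0.00129). The largest rise was Cyp4a31, of the omega-hydroxylase family, at 218, 194 and 167 CPM in HFD-Res livers, against 23, 26.8 and 20.8 CPM in HFD-NS livers (log2 fold change 3.04, SE 0.159, adjusted p = 6.32e-10); close copies make counts of this family uncertain. Pdk4, which blocks pyruvate entry during fasting, had 21.8, 15.6 and 14.8 CPM in HFD-Res livers, against 29.1, 28.9 and 10.4 CPM in HFD-NS livers and did not pass (log2 fold change -0.39, adjusted p = 0.612). The count of 6 falls was 3 without HFD-NS library 12, HFD-NS library 13 or HFD-Res library 34, and 2 without HFD-Res library 30.

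Bile acid transporters differed in direction. Abcc3 (chromosome 11, 94234121 to 94283816), which exports bile acid and glucuronide conjugates from hepatocytes back to blood, had 19.9, 16.1 and 14.7 CPM in HFD-Res livers, against 327, 370.4 and 328 CPM in HFD-NS livers. Treated livers held 4.94% of the HFD-NS mean, with no approach between the groups (log2 fold change -4.35, SE 0.144, adjusted p = 1.15e-13). Export toward bile went the other way: Abcb11, the canalicular bile salt pump, had 742, 909 and 798 CPM in HFD-Res livers, against 524, 506 and 470.0 CPM in HFD-NS livers (log2 fold change 0.71, SE 0.126, adjusted p = 0.000657), and Abcb4, the phospholipid flippase, was higher as well (log2 fold change 0.40, adjusted p = 0.0189), a call lost without HFD-Res library 30, without HFD-NS library 13 or 16 and on recomputed TPM (adjusted p up to 0.0974).

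Of the synthetic enzymes, Cyp8b1, which makes cholic acid, had 246, 161 and 140.3 CPM in HFD-Res livers, against 501, 367 and 413 CPM in HFD-NS livers (log2 fold change -1.23, SE 0.249, adjusted p = 0.00519). Cyp27a1, the first enzyme of the alternative route, had 615, 599 and 648 CPM in HFD-Res livers, against 396, 358 and 406 CPM in HFD-NS livers (log2 fold change 0.68, SE 0.0921, adjusted p = 4e-05). The rate-limiting Cyp7a1, a known thyroid hormone target, had 606, 722 and 249 CPM in HFD-Res livers, against 255, 149.7 and 189 CPM in HFD-NS livers. Libraries 29 and 30 lay well above HFD-NS livers, whereas library 34 lay within their range, and the difference did not pass (log2 fold change 1.41, adjusted p = 0.0833). Without library 34 its adjusted p was 0.0354, and with DESeq2 it was 0.026. Over 25 tested bile acid genes, 4 rose (16%) and 2 fell (8%), against 6.22% higher and 6.74% lower over all genes. The share that fell is close to that over all genes. Without HFD-Res library 30 the rises numbered 2.

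Genes that mouse liver normally expresses more in females were among the 15 largest rises. In rodents the pulsatile growth hormone of males and the steadier secretion of females, acting through STAT5b, are known to set these programmes. Of 24 tested female-biased genes, 14 were higher in HFD-Res livers and 0 lower, with a median log2 fold change of 2.28. The summed level of the list overlapped between the groups, at 4533 to 5891 CPM in HFD-Res livers against 3751 to 5259 CPM in HFD-NS livers. Sult2a1 (chromosome 7, 13530171 to 13571335), a sulfotransferase of bile acids and steroids, had 368, 340.4 and 254 CPM in HFD-Res livers, against 1.4, 0.372 and 0.843 CPM in HFD-NS livers. That is 4951 counts over the 3 HFD-Res libraries and 23 over the 3 HFD-NS libraries (log2 fold change 8.48, SE 0.233, adjusted p = 7.78e-14). Reads of the neighbouring copies Sult2a2, Sult2a3 and Sult2a5 rose likewise, and the split of reads between these copies is uncertain. Sult2a2 had 59.3, 54.3 and 87.3 CPM in HFD-Res livers, against 0.117, 0 and 0.316 CPM in HFD-NS livers, and Sult2a5 had 178, 178 and 49.7 CPM in HFD-Res livers, against 0.234, 0.372 and 0.632 CPM in HFD-NS livers. Sult2a3 had 454 counts in the treated libraries together against 2 in HFD-NS libraries, a ratio of 373 (95% exact counting interval 103 to 3087).

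Cytochromes P450 of the female programme followed. Cyp2a4, a steroid 15-alpha-hydroxylase, had 632, 481 and 471 CPM in HFD-Res livers, against 3.97, 11.9 and 6.11 CPM in HFD-NS livers (log2 fold change 6.18, SE 0.433, adjusted p = 3.7e-06). Cyp3a16, which is otherwise fetal and female, had 374, 313 and 111 CPM in HFD-Res livers, against 0.234, 0.621 and 1.69 CPM in HFD-NS livers (log2 fold change 8.21, SE 0.585, adjusted p = 4.64e-06). Cyp3a44 (log2 fold change 7.77, adjusted p = 1.35e-06) and Cyp2c40 (log2 fold change 3.67, adjusted p = 1.26e-06) were higher in every treated liver. Cyp3a41a had 152 counts against 2, a ratio of 125 (95% exact counting interval 34 to 1039.6), and shares 50% of its exon length with another gene. Within the treated group, library 34 was the lowest for Cyp3a16, Cyp3a44, Cyp3a41a, Sult2a1, Sult2a5 and Cux2, while it still lay far above the HFD-NS livers.

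Cux2 (chromosome 5, 121998279 to 122187914), the transcription factor that marks female mouse liver and lies outside these gene clusters, had 22.7, 23.5 and 12.9 CPM in HFD-Res livers, against 0, 0.621 and 0.527 CPM in HFD-NS livers (log2 fold change 5.60, SE 0.465, adjusted p = 2.84e-07). Akr1c18, a hydroxysteroid dehydrogenase outside the list, also rose, at 30.4, 42.6 and 28.9 CPM in HFD-Res livers, against 0.117, 0.497 and 0.632 CPM in HFD-NS livers (log2 fold change 6.27, SE 0.515, adjusted p = 4.57e-06). Not every member followed. Cyp2b9 (log2 fold change -1.47, adjusted p = 0.252), a classic female-biased gene named after its value was seen, did not pass and had a negative value. In a fit of these 2 groups alone, and without HFD-NS library 12, 1 member was lower.

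Male-biased genes did not move as a block. Of 24 tested, 6 fell and 1, Mup11, rose, with a median log2 fold change of -0.79. Fitted values were below 0 for 14 members and above 0 for 10. The summed level of the list was higher in HFD-Res livers, at 16497 to 22324 CPM against 4302 to 12433 CPM in HFD-NS livers. Within these sums, which averaged 18852 and 8029 CPM, Mup11 alone averaged 12656 CPM in HFD-Res and 202 CPM in HFD-NS livers. Its exons overlap Mup2, so its value is uncertain. Cyp4a12a, a male arachidonic acid hydroxylase under androgen and growth hormone control, had 2.57, 3.91 and 5.67 CPM in HFD-Res livers, against 102, 75.6 and 83.2 CPM in HFD-NS livers (log2 fold change -4.36, SE 0.769, adjusted p = 0.00356); with limma-voom its adjusted p was 0.0554. Cyp2d9, the male testosterone 16-alpha-hydroxylase, had 37.7, 35.7 and 66.7 CPM in HFD-Res livers, against 628, 307 and 582 CPM in HFD-NS livers (log2 fold change -3.42, SE 0.445, adjusted p = 0.000431). Cyp2u1 (log2 fold change -2.70, adjusted p = 0.00063) and C8a, a terminal complement component (log2 fold change -1.71, adjusted p = 5.62e-05), were lower as well. Nox4, an NADPH oxidase outside this list and among the 15 largest falls, had 3, 4.14 and 6.68 CPM in HFD-Res livers, against 69.7, 58.9 and 77.7 CPM in HFD-NS livers (log2 fold change -3.83, SE 0.306, adjusted p = 2.72e-06). In each of these genes the groups were apart.

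The Y-linked genes Ddx3y, Eif2s3y, Kdm5d and Uty were expressed in all 15 libraries, with summed levels of 239 to 259 CPM in HFD-Res livers and 226 to 261 CPM in HFD-NS livers. Xist, the transcript of the inactive X, had 0 to 3 counts in HFD-Res libraries and 1 to 3 in HFD-NS libraries. Y-linked transcripts were thus present, and Xist close to absent, in both groups.

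**Figure D5:**
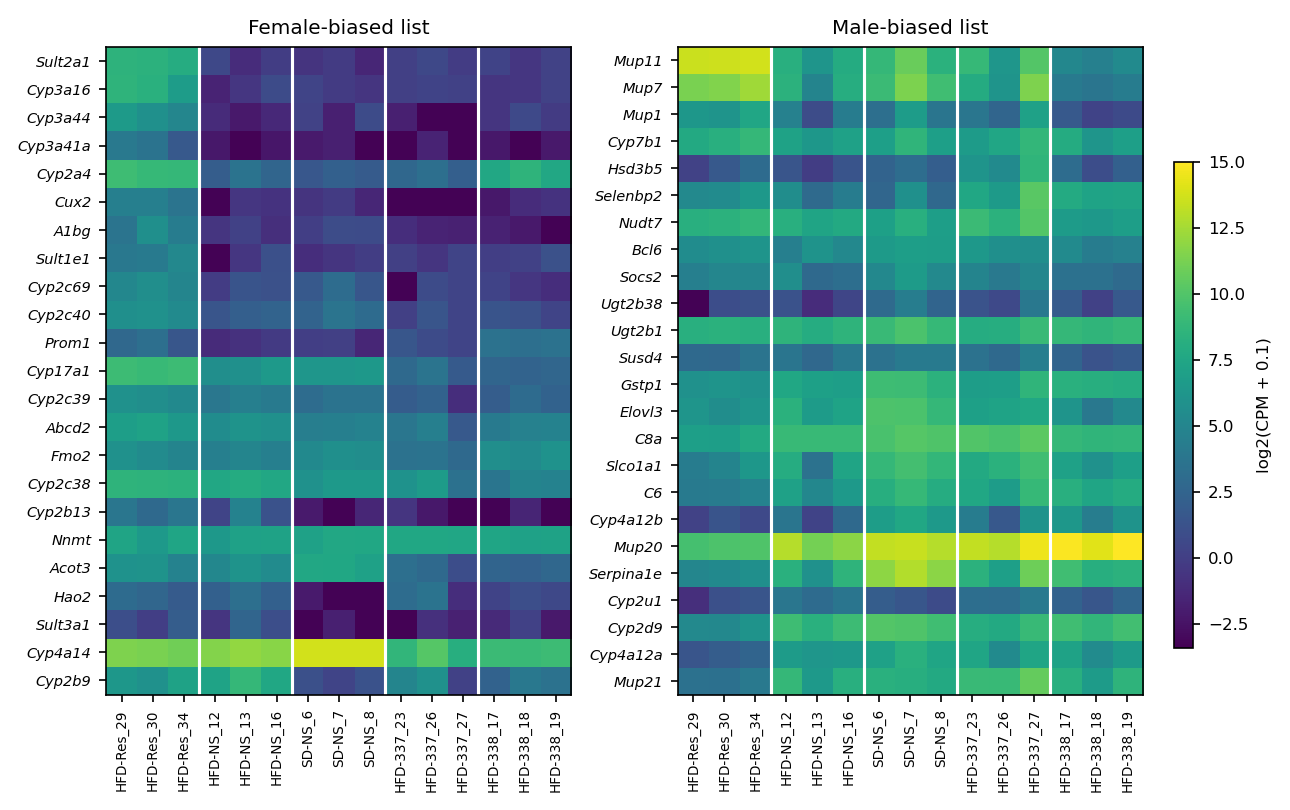
Level of 23 of the 24 tested female-biased genes (left) and of the male-biased genes (right) in every library, as log2 of CPM plus 0.1, with HFD-Res libraries in the first 3 columns and genes ordered by fold change. At the top of the female-biased panel, Sult2a1, Cyp3a16 and Cyp3a44 are bright in HFD-Res libraries and dark elsewhere, while Cyp2a4 is also bright in HFD-338 libraries.

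Genes of the major urinary proteins, pheromone carriers that male mouse liver makes in quantity from a cluster on chromosome 4, moved in both directions. Of 22 tested Mup genes, 14 rose, 2 fell and 6 did not pass, with a median log2 fold change of 4.09. Together they took 6.09% to 7.11% of all counts in HFD-Res libraries and 0.709% to 1.74% in HFD-NS libraries. Reads in exons shared by several of these genes count for each, so these are shares of counts and not of distinct reads. Mup9 had 9054, 8787 and 8603 CPM in HFD-Res livers, against 21.8, 17.6 and 25 CPM in HFD-NS livers (log2 fold change 8.68, SE 0.265, adjusted p = 1.17e-12). Mup17 had 18402, 19964 and 20292 CPM in HFD-Res livers, against 208, 67.8 and 86.5 CPM in HFD-NS livers (log2 fold change 7.34, SE 0.964, adjusted p = 0.000551). Levels were nearly equal among the treated livers and far above those of every HFD-NS liver. Mup2 (log2 fold change 7.17, adjusted p = 0.000226), Mup15 (log2 fold change 7.45, adjusted p = 0.000313) and Mup18 (log2 fold change 7.40, adjusted p = 7.23e-06) rose by similar amounts.

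Mup21, in contrast, fell, with 11.1, 10.4 and 16.7 CPM in HFD-Res livers, against 452, 95.4 and 298 CPM in HFD-NS livers (log2 fold change -4.44, SE 0.789, adjusted p = 0.00376). Mup20, known as darcin and named here as the only other fall, had 772, 922 and 969 CPM in HFD-Res livers, against 7880.3, 2291 and 3587 CPM in HFD-NS livers (log2 fold change -2.37, adjusted p = 0.0115), and in a fit of these 2 groups alone its adjusted p was 0.0521. Mup3, named for its promoter, had 3375, 3111 and 4576 CPM in HFD-Res livers, against 8252, 4387 and 8165 CPM in HFD-NS livers, overlapped and did not pass (log2 fold change -0.91, adjusted p = 0.232). Exons of some copies overlap another Mup gene (69.3% of the length for Mup2, 69.7% for Mup11, 70.9% for Mup15), and reads there count for each. The rises of these copies may therefore rest in part on the same reads. Reads can also be split among near-identical copies, so the value of a single Mup gene is uncertain.

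The 120 bases before the RefSeq start of Mup9, Mup17, Mup3 and Mup21 on build GRCm38.p6 are shown for genes that differed in direction. They lie at chr4:60421953-60422072, minus strand, chr4:61595833-61595952, minus strand, chr4:62087318-62087437, minus strand and chr4:62150842-62150961, minus strand. Neither motif searched in the cholesterol promoters has a match in these stretches, so no letter is capitalised.
Mup9: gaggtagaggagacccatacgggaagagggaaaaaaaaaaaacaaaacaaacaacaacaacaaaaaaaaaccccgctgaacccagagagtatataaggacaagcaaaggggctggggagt
Mup17: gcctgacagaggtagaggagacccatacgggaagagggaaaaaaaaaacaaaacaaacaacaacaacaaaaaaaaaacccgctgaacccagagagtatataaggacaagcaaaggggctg
Mup3: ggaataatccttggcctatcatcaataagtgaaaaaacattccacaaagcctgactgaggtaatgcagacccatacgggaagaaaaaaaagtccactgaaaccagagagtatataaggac
Mup21: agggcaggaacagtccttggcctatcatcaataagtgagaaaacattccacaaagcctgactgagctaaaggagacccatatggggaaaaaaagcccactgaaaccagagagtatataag
Over the full 300 bases in a global alignment, Mup9 was 93.5% identical to Mup17 but 57.3% to Mup21, whereas Mup21 was 90.2% identical to Mup3. Likeness of these windows did not follow the direction of change throughout the family. Mup4 and Mup6 rose, with log2 fold changes of 3.21 and 3.35, while their windows were 77.6% and 78.4% identical to that of Mup3, which did not pass, and 72.3% and 71.9% identical to that of Mup9. Both were named after their values were seen.

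Drug-metabolising genes changed in both directions. Of 38 tested xenobiotic genes, 12 rose and 5 fell. Of the rises, 6 are on the female-biased list, Sult2a1 and the P450s above among them, and 6 are not. The 6 others include Gstt1 (log2 fold change 0.92, adjusted p = 0.0124), a glutathione transferase, and Ces2c (log2 fold change 1.22, adjusted p = 0.00285), a carboxylesterase, both named after their values were seen. Cyp3a11, the main inducible CYP3A of adult mouse liver, had 338, 267 and 313 CPM in HFD-Res livers, against 1939, 1890.1 and 1328 CPM in HFD-NS livers (log2 fold change -2.49, SE 0.341, adjusted p = 0.000431). Gstm1 (log2 fold change -1.17, adjusted p = 0.000522), Gsta2 (log2 fold change -1.98, adjusted p = 0.000397) and Cyp1a2 (log2 fold change -0.87, adjusted p = 0.00147) were lower in every treated liver. With DESeq2 the falls numbered 8.

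Genes of glucose and amino acid metabolism fell more often than they rose. Of 26 tested genes of glucose handling, gluconeogenesis and glycogen, 8 fell and 1 rose, with a median log2 fold change of -0.16. Pcx, pyruvate carboxylase, had 215, 208 and 213 CPM in HFD-Res livers, against 441, 415 and 421 CPM in HFD-NS livers (log2 fold change -1.01, SE 0.0802, adjusted p = 6.7e-08). Fbp1, fructose-1,6-bisphosphatase, had 386, 390.3 and 317 CPM in HFD-Res livers, against 878, 879.7 and 901 CPM in HFD-NS livers (log2 fold change -1.28, SE 0.152, adjusted p = 9.51e-06), and Ugp2, which makes UDP-glucose for glycogen, had 301, 289.6 and 301 CPM in HFD-Res livers, against 607, 531 and 650.0 CPM in HFD-NS livers (log2 fold change -1.0, adjusted p = 3.13e-05). For all 3 genes the treated livers lay close together and below every HFD-NS liver. Pck1, which with Fbp1 controls gluconeogenesis, had 1263, 1803 and 1891 CPM in HFD-Res livers, against 1354, 1737 and 1666 CPM in HFD-NS livers and overlapped (log2 fold change 0.06, adjusted p = 0.952). The rise was Foxo1, the insulin-restrained activator of gluconeogenesis (log2 fold change 0.45, adjusted p = 0.0147), a call lost in 4 of the 6 fits that left out a library (adjusted p up to 0.082).

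Of 30 tested genes of the urea cycle and amino acid breakdown, 9 fell and 0 rose, with a median log2 fold change of -0.32. Sds, serine dehydratase, had 22.9, 19.3 and 27.8 CPM in HFD-Res livers, against 71.3, 86.8 and 109.8 CPM in HFD-NS livers (log2 fold change -1.92, SE 0.296, adjusted p = 0.00105). Tdo2, the first enzyme of tryptophan breakdown, had 1173, 1045 and 1021 CPM in HFD-Res livers, against 1663, 1910.5 and 2111 CPM in HFD-NS livers (log2 fold change -0.81, SE 0.15, adjusted p = 0.000931). Uroc1, of histidine breakdown, was lower as well (log2 fold change -0.76, adjusted p = 0.000554). Etnppl, a lyase of phosphoethanolamine and among the 15 largest falls, had 6.21, 5.29 and 5.67 CPM in HFD-Res livers, against 59.8, 67.8 and 88 CPM in HFD-NS livers (log2 fold change -3.65, SE 0.453, adjusted p = 0.000302), far below in every treated liver.

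Genes were also grouped by liver zonation, the graded division of labour between portal and central ends of the lobule. Of 24 periportal genes, 12 fell and 1 rose, with a median log2 fold change of -0.51. Most of these falls were also counted in other lists. Sds, Hal, Slc7a2, Gls2, Uroc1 and Ass1 are on the amino acid list too. Fbp1 is on the glucose list, Hsd17b13 on the droplet list and Mup20 on the male-biased list. Hal, Slc7a2, Gls2 and Ass1 are named only as shared members. Aldh1b1, a mitochondrial aldehyde dehydrogenase, had 13.9, 8.97 and 10.9 CPM in HFD-Res livers, against 40.8, 56.5 and 39.8 CPM in HFD-NS livers (log2 fold change -2.02, SE 0.216, adjusted p = 1.02e-05). The rise was Cdh1, E-cadherin, at 25.3, 53.4 and 38.5 CPM in HFD-Res livers, against 10.9, 6.08 and 5.9 CPM in HFD-NS livers (log2 fold change 2.35, SE 0.294, adjusted p = 0.000139). The summed hepatocyte markers, given above, were lower in HFD-Res livers too, with 5 of 14 lower and 1 higher, and their part in the periportal falls was not tested. Of 24 pericentral genes, 4 rose and 5 fell, with a median log2 fold change of 0.15. Lgr5, the R-spondin receptor of hepatocytes at the central vein, had 15.4, 17 and 10.6 CPM in HFD-Res livers, against 5.72, 8.57 and 6.01 CPM in HFD-NS livers (log2 fold change 1.07, SE 0.235, adjusted p = 0.00407), and Tbx3, a pericentral transcription factor, had 85.2, 132 and 128 CPM in HFD-Res livers, against 68.9, 61.8 and 55.4 CPM in HFD-NS livers (log2 fold change 0.90, SE 0.184, adjusted p = 0.00426). The pericentral enzymes Cyp2e1 (log2 fold change -1.10, adjusted p = 0.000113) and Oat (log2 fold change -1.54, adjusted p = 0.0094) were lower. The pericentral enzyme Cyp27a1 (log2 fold change 0.68, adjusted p = 4e-05), also on the bile acid list, was higher. Pericentral genes thus changed in both directions. The pericentral falls numbered 3 without HFD-NS library 16, HFD-Res library 30 or HFD-Res library 34.

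Mitochondrial genes changed selectively. Of 36 tested genes of the TCA cycle and carriers, 8 rose, with Idh3a and Gpd2 in front, and 5 fell. Pdhb, a subunit of pyruvate dehydrogenase, had 161, 174 and 179 CPM in HFD-Res livers, against 119, 92.5 and 104 CPM in HFD-NS livers (log2 fold change 0.70, SE 0.0998, adjusted p = 6.86e-05). Idh2, the NADP-dependent isocitrate dehydrogenase, was lower at 48, 42.6 and 35.5 CPM in HFD-Res livers, against 80.3, 101 and 83.5 CPM in HFD-NS livers (log2 fold change -1.08, SE 0.177, adjusted p = 0.000644). Of 37 tested respiratory chain genes, 3 rose and 0 fell, with a median log2 fold change of 0.05. The share that rose, 8.11%, is close to the 6.22% over all genes. The electron carrier Cycs led these rises (log2 fold change 0.48, adjusted p = 0.00492). The rises of the TCA list numbered 5 without HFD-NS library 13, HFD-NS library 16 or HFD-Res library 30, and its falls 3 without HFD-NS library 16 or HFD-Res library 34.

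Interferon-stimulated genes rose more often than they fell. Of 40 tested, 23 rose and 1 fell, with a median log2 fold change of 0.72. Ifih1, the cytosolic sensor MDA5, had 90.8, 96.8 and 105 CPM in HFD-Res livers, against 46.9, 50.8 and 42.3 CPM in HFD-NS livers (log2 fold change 1.07, SE 0.117, adjusted p = 3.63e-06). Rtp4 had 52.5, 42.1 and 71.6 CPM in HFD-Res livers, against 24.5, 28.7 and 29.2 CPM in HFD-NS livers (log2 fold change 1.02, SE 0.172, adjusted p = 0.00058), and Xaf1 had 20.1, 12.7 and 23 CPM in HFD-Res livers, against 7.71, 10.2 and 7.8 CPM in HFD-NS livers (log2 fold change 1.14, SE 0.196, adjusted p = 0.000473). All treated livers were above all HFD-NS livers for these 3 genes. The fall was Cxcl10, a chemokine, at 10.5, 7.59 and 11.2 CPM in HFD-Res livers, against 15.9, 20.6 and 14.7 CPM in HFD-NS livers (log2 fold change -0.78, adjusted p = 0.0137), a call lost without HFD-NS library 13 or HFD-Res library 30. Without HFD-Res library 34, 13 of the list were higher. Beside these changes, markers of Kupffer cells summed to 490 to 618 CPM in HFD-Res livers and 479 to 546 CPM in HFD-NS livers, with 0 of 15 called, and their part in the result was not tested.

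Inflammatory, acute phase and complement genes fell more often than they rose. Of 28 tested cytokines, chemokines and receptors, 5 fell and 1 rose, with a median log2 fold change of -0.41. The rise was Ccl9 (log2 fold change 0.45, adjusted p = 0.0448), a call lost in 7 of 12 alternatives. Ccl2, which draws monocytes, had 1.07, 0.46 and 1.02 CPM in HFD-Res livers, against 5.84, 4.97 and 3.16 CPM in HFD-NS livers (log2 fold change -2.38, SE 0.437, adjusted p = 0.000799). Il1rn, the interleukin 1 receptor antagonist, had 3.64, 2.3 and 4.79 CPM in HFD-Res livers, against 9.34, 20 and 10.4 CPM in HFD-NS livers (log2 fold change -1.82, SE 0.394, adjusted p = 0.00561). Levels of both were low in all 6 livers. Of 29 acute phase genes, 7 fell and 0 rose. Saa3 had 6.21, 4.83 and 9.73 CPM in HFD-Res livers, against 18.2, 23.8 and 19.9 CPM in HFD-NS livers (log2 fold change -1.52, SE 0.323, adjusted p = 0.00552), and Serpina3n had 315, 227 and 299.9 CPM in HFD-Res livers, against 463, 643 and 491 CPM in HFD-NS livers (log2 fold change -0.92, SE 0.161, adjusted p = 0.000718). Of 37 genes of complement and coagulation, 10 fell and 0 rose, among them C1s1 (log2 fold change -0.92, adjusted p = 3.29e-06) and Cfi (log2 fold change -0.64, adjusted p = 0.000558).

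Those counts rested in part on single libraries. Cytokine falls numbered 3 without HFD-Res library 30. Acute phase falls numbered 3 without HFD-NS library 13 or HFD-Res library 30 and 4 without HFD-Res library 29. Complement falls numbered 5 without HFD-NS library 16 and 6 without HFD-Res library 30. Monocyte-derived and lipid-associated macrophage markers summed to 146 to 163 CPM in HFD-Res livers and 143 to 219 CPM in HFD-NS livers, with 2 of 15 called lower. Gpnmb, which marks such macrophages, had 0.428, 0.92 and 0.726 CPM in HFD-Res livers, against 3.74, 6.83 and 2.95 CPM in HFD-NS livers (log2 fold change -2.65, SE 0.527, adjusted p = 0.00199). Neutrophil markers summed to 2.76 to 4.94 CPM in HFD-Res livers against 5.90 to 16.9 CPM in HFD-NS livers, with 0 of 3 tested called and Camp at 0 in all 6. The part of these cells in the falls was not tested.

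Cfd, adipsin, a complement factor made by adipocytes, had 0.428, 0 and 0 CPM in HFD-Res livers, against 9.57, 5.59 and 14.8 CPM in HFD-NS livers. With 2 counts in treated livers together against 267, the ratio was 0.0123 (95% exact counting interval 0.00148 to 0.0449). Of 10 adipocyte and muscle markers it alone had enough counts to be tested, and Lep, Acta1 and Myh1 had no count in any of the 6 libraries. Themis, a gene of developing T cells, had 1.93, 0.69 and 0.872 CPM in HFD-Res livers, against 21.6, 22.1 and 15.5 CPM in HFD-NS livers (log2 fold change -4.09, SE 0.469, adjusted p = 3.1e-05), while T and NK cell markers summed to 4.83 to 7.49 CPM in HFD-Res livers and 3.50 to 17.1 CPM in HFD-NS livers. In that list 1 of 4 tested markers was called, Cd8a, named as that exception, with 1 count in HFD-Res livers against 50 in HFD-NS livers and a ratio of 0.0328 (95% exact counting interval 0.000815 to 0.192), a call lost in 5 of the 11 alternatives that tested it. B and plasma cell markers (0 of 5 called) and dendritic cell markers (0 of 7) had summed levels that overlapped between the groups. Pancreas markers summed to 1.60 to 1.84 CPM in HFD-Res livers and 1.37 to 1.52 CPM in HFD-NS livers, with 1 gene tested and not called, and Prss1, Cpb1, Try4, Ins1 and Ins2 had no count in any of the 6 libraries.

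Few matrix genes passed the test. Of 39 tested fibrosis and matrix genes, 1 rose and 1 fell, with a median log2 fold change of -0.29. Each is 2.56% of the list, against 6.22% higher and 6.74% lower over all genes. The fall was Mmp12, the macrophage elastase, named as the only fall (log2 fold change -1.49, adjusted p = 0.0215), and without HFD-NS library 12, HFD-NS library 13 or HFD-Res library 29 there was none. Col1a1 had 6.85, 4.83 and 9.44 CPM in HFD-Res livers, against 17.5, 18.4 and 8.64 CPM in HFD-NS livers (log2 fold change -1.02, adjusted p = 0.338), and Col3a1 had 19.1, 23.9 and 18.7 CPM in HFD-Res livers, against 47.6, 60.5 and 29.7 CPM in HFD-NS livers (log2 fold change -1.16, adjusted p = 0.133). For Col3a1 every treated liver lay below every HFD-NS liver, while Col1a1 values overlapped, and neither of these fibrillar collagens passed. In a fit of these 2 groups alone the adjusted p of Col3a1 was 0.0305. The rise was Col15a1, a basement membrane collagen, at 20.1, 29.4 and 20.8 CPM in HFD-Res livers, against 2.34, 4.72 and 3.27 CPM in HFD-NS livers (log2 fold change 2.76, SE 0.342, adjusted p = 4.29e-05). Stellate cell markers summed to 587 to 665 CPM in HFD-Res livers and 510 to 574 CPM in HFD-NS livers, with 1 of 15, Pdgfra, called higher (log2 fold change 0.63, adjusted p = 0.0468), a call lost in 9 of 12 alternatives. Sinusoidal endothelial markers summed to 440 to 519 CPM in HFD-Res livers and 424 to 513 CPM in HFD-NS livers, with 1 of 16, Bmp2, higher (log2 fold change 0.94, adjusted p = 0.00196). The shares of stellate and endothelial markers called higher, 6.67% and 6.25%, are close to the 6.22% over all genes. The part of stellate and endothelial cells in the Col15a1 result was not tested.

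Bile duct markers summed to 109 to 139 CPM in HFD-Res livers and 75.1 to 90.7 CPM in HFD-NS livers, without overlap. Of 13 tested, 3 rose and 1 fell. Prom1, which is also on the female-biased list, had 7.07, 9.66 and 2.76 CPM in HFD-Res livers, against 0.35, 0.497 and 0.738 CPM in HFD-NS livers (log2 fold change 3.50, SE 0.471, adjusted p = 3.31e-05), and the adhesion molecule Epcam had 3, 2.76 and 2.76 CPM in HFD-Res livers, against 1.28, 0.869 and 0.527 CPM in HFD-NS livers (log2 fold change 1.66, SE 0.405, adjusted p = 0.00815). Sox9, the duct transcription factor, was lower (log2 fold change -1.11, adjusted p = 0.0183), a call lost without HFD-NS library 12, HFD-Res library 29 or HFD-Res library 34. The called duct markers thus moved in both directions, and 9 of the 13 were not called.

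Stress and growth genes changed one by one. Of 29 tested genes of the unfolded protein and integrated stress responses, 4 rose and 3 fell. Psat1, of serine synthesis, had 4.28, 11.7 and 9.15 CPM in HFD-Res livers, against 0.117, 0.621 and 0.632 CPM in HFD-NS livers (log2 fold change 4.14, SE 0.548, adjusted p = 3.1e-05). Atf5, a transcription factor of the mitochondrial stress response, had 628, 797 and 741 CPM in HFD-Res livers, against 331, 281 and 261 CPM in HFD-NS livers (log2 fold change 1.31, SE 0.119, adjusted p = 3.17e-07). Herpud1, of endoplasmic reticulum protein degradation, was lower (log2 fold change -0.97, adjusted p = 0.00647). The falls of this list numbered 1 without HFD-NS library 12, HFD-NS library 13 or HFD-Res library 34, and 5 without HFD-NS library 16. Of 27 antioxidant genes, 5 fell and 0 rose, among them Gclc, for glutathione synthesis (log2 fold change -0.81, adjusted p = 0.000559), and Cat, catalase (log2 fold change -0.60, adjusted p = 0.000466). The antioxidant falls numbered 3 without HFD-NS library 12, HFD-NS library 13 or HFD-Res library 34. Ccnd1, cyclin D1, had 205, 177 and 109 CPM in HFD-Res livers, against 22.3, 37.7 and 23.8 CPM in HFD-NS livers (log2 fold change 2.55, SE 0.378, adjusted p = 0.00105). Of 33 cell cycle genes, however, 2 rose and 0 fell, and the list's median log2 fold change was -0.56. The share of the list that rose, 6.06%, is close to the 6.22% over all genes. The other cell cycle rise, Rrm2, of nucleotide synthesis (log2 fold change 1.04, adjusted p = 0.0188), was lost without HFD-NS library 12, HFD-NS library 13 or HFD-Res library 34. Gadd45a rose too (log2 fold change 2.45, adjusted p = 0.0141), a call lost without HFD-NS library 12 or 16, and 19.4% of its exons overlap another gene.

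Lysosomal genes were lower in 8 of 30 cases and higher in 0, with Ctsb, cathepsin B, at 417, 353 and 409.9 CPM in HFD-Res livers, against 643, 743 and 688 CPM in HFD-NS livers (log2 fold change -0.81, SE 0.113, adjusted p = 5.51e-05) and Gabarapl1, of autophagosomes, at 329, 284 and 358 CPM in HFD-Res livers, against 526, 542 and 517 CPM in HFD-NS livers (log2 fold change -0.71, SE 0.115, adjusted p = 0.000281). Of 22 iron and heme genes 5 fell, led by Alas2, the erythroid aminolevulinate synthase that starts heme synthesis (log2 fold change -1.98, adjusted p = 1.11e-06), and 0 rose. Red blood cell markers, which include Alas2, summed to 291 to 374 CPM in HFD-Res livers and 355 to 477 CPM in HFD-NS livers, and their part was not tested. The iron falls numbered 3 with RLE size factors and in 5 of the 6 fits that left out a library of the groups compared, all but the one without HFD-NS library 16. Clock genes had 0 rises and 3 falls among 23, of which Nfil3 had 15.6, 13.8 and 10 CPM in HFD-Res livers, against 48.2, 35.4 and 24 CPM in HFD-NS livers (log2 fold change -1.47, SE 0.274, adjusted p = 0.00247). Without HFD-NS library 16, 4 clock genes were higher. Of 40 ribosomal protein genes, 1 rose and 0 fell, while 0 rose without the low-count filter and in 5 of the 6 fits that left out a library, and 2 rose without HFD-Res library 30. Of 22 genes of insulin, glucagon and leptin signalling 3 rose and 2 fell, and of 22 p53 targets and apoptosis genes 2 rose and 2 fell, against 6.22% higher and 6.74% lower over all genes. Over the alternatives the insulin list had 1 to 4 rises and 1 to 2 falls, with 1 rise without HFD-NS library 12, HFD-NS library 16, HFD-Res library 29 or HFD-Res library 34. The p53 list had 0 to 2 rises and 0 to 3 falls, with 0 rises without HFD-NS library 16 and 0 falls without HFD-Res library 30.

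Set against SD-NS livers, HFD-Res livers differed in 3543 genes (26.9% of those tested), of which 1517 (11.5%) were higher and 2026 (15.4%) lower. That comparison and the one with HFD-NS share the HFD-Res libraries, so the values are given side by side. Dio1 averaged 679 ± 44.3 CPM in HFD-Res livers, 136 ± 10.6 CPM in HFD-NS livers and 62.9 ± 21 CPM in SD-NS livers (SD, n = 3 each), and was higher in HFD-Res than in SD-NS (log2 fold change 3.43, adjusted p = 2.92e-06). Nsdhl averaged 191 ± 26.3 CPM in HFD-Res livers, 26.9 ± 4.24 CPM in HFD-NS livers and 10.4 ± 0.364 CPM in SD-NS livers (log2 fold change 4.20, adjusted p = 1.03e-13 against SD-NS). Sult2a1 averaged 321 ± 59.3 CPM in HFD-Res livers, 0.872 ± 0.515 CPM in HFD-NS livers and 0.53 ± 0.248 CPM in SD-NS livers (log2 fold change 9.13, adjusted p = 1.03e-13 against SD-NS). For these genes the treated livers stood apart from both other groups.

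For other genes the HFD-Res and SD-NS means were close. Serpina7 averaged 21.9 ± 15.8 CPM in HFD-Res livers, 177 ± 48.5 CPM in HFD-NS livers and 32.7 ± 1.43 CPM in SD-NS livers, and HFD-Res did not pass against SD-NS (log2 fold change -0.52, adjusted p = 0.485). Aldh1b1 averaged 11.3 ± 2.49 CPM in HFD-Res livers, 45.7 ± 9.36 CPM in HFD-NS livers and 12 ± 4.01 CPM in SD-NS livers (log2 fold change -0.10, adjusted p = 0.818 against SD-NS). Cdh1 averaged 39 ± 14.1 CPM in HFD-Res livers, 7.62 ± 2.81 CPM in HFD-NS livers and 32 ± 1.83 CPM in SD-NS livers (log2 fold change 0.28, adjusted p = 0.492 against SD-NS). A p that misses the threshold does not show that these levels are the same. By list, the cholesterol genes had 25 of 26 members higher and 0 lower in HFD-Res than in SD-NS livers, the interferon-stimulated genes 40 of 40 higher, and the oxidation and PPAR alpha genes 4 higher and 26 lower of 40.

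The groups labelled 337 and 338 were compared with HFD-Res directly. HFD-Res and HFD-337 livers differed in 6283 genes (47.6%), with 3078 (23.3%) higher and 3205 (24.3%) lower in HFD-Res. HFD-Res and HFD-338 livers differed in 5687 genes (43.1%), with 2761 (20.9%) higher and 2926 (22.2%) lower. Stk25, the gene targeted in the series, averaged 42 ± 4.62 CPM in HFD-Res, 46.5 ± 2.53 CPM in HFD-NS, 17.5 ± 2.51 CPM in HFD-337 and 21.5 ± 0.811 CPM in HFD-338 livers. It did not pass in HFD-Res against HFD-NS (log2 fold change -0.15, adjusted p = 0.421) and was higher in HFD-Res than in HFD-337 (log2 fold change 1.25, adjusted p = 1.23e-07) and HFD-338 (log2 fold change 0.96, adjusted p = 2.36e-06).

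The receptor targets and the cholesterol genes were mostly higher in HFD-Res livers than in HFD-337 or HFD-338 livers. These comparisons share the HFD-Res libraries. Of 27 receptor targets, 17 were higher and 1 lower than in HFD-337 livers, and 18 were higher and 1 lower than in HFD-338 livers. Of 26 cholesterol genes, 25 were higher and 1 lower than in HFD-337, and 26 were higher than in HFD-338. Of 24 female-biased genes, 20 were higher than in HFD-337 and 18 higher than in HFD-338, with 0 lower in either. Cyp2a4 was also high in HFD-338 livers, with 528 ± 90 CPM in HFD-Res and 260.3 ± 108 CPM in HFD-338 livers (log2 fold change 1.02, adjusted p = 0.0282).

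Interferon-stimulated and matrix genes are given beside the shares over all genes, 23.3% higher and 24.3% lower than in HFD-337 livers, and 20.9% higher and 22.2% lower than in HFD-338 livers. Of 40 interferon-stimulated genes, 4 were higher and 14 lower in HFD-Res than in HFD-337 livers, and 10 were higher and 5 lower than in HFD-338 livers. Of 39 matrix genes, 10 were higher and 1 lower than in HFD-337, while 2 were higher and 30 lower than in HFD-338. The 10 matrix genes higher than in HFD-337 and the 10 interferon-stimulated genes higher than in HFD-338 are close to those shares. Col3a1 averaged 20.6 ± 2.9 CPM in HFD-Res, 29.3 ± 21.3 CPM in HFD-337 and 281 ± 82.4 CPM in HFD-338 livers, and HFD-Res was lower than HFD-338 (log2 fold change -3.78, adjusted p = 8.94e-05). Abcc3 was lower in HFD-Res than in both other groups, at 16.9 ± 2.71 CPM against 145 ± 27 CPM in HFD-337 (log2 fold change -3.11, adjusted p = 1.11e-11) and 225 ± 12.1 CPM in HFD-338 livers (log2 fold change -3.74, adjusted p = 9e-13).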

How the data were processed

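According to the labels' protocols, TRIzol and chloroform were used to isolate total RNA, and poly(A) RNA was selected from it. The submitters' processing notes list 4 tools (Bowtie 1.3.1, Trim Galore 0.6.10, STAR 2.7.10b and featureCounts 2.0.1) and build mm39, without their roles. The authors deposited counts of exonic reads per gene, made per the file headers with featureCounts, ignoring strand and counting a read for every gene it overlaps. The deposited exon length of each gene is an annotation value beside them. A TPM table was not used. Libraries held 3873903 to 9797743 counts.

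All 15 libraries entered 1 fit in edgeR 4.0.16 (R 4.3.3) after filterByExpr and TMM, with the robust quasi-likelihood test and Benjamini-Hochberg adjustment. The common biological coefficient of variation was 0.134, and the procedure was tested on simulated data. CPM are TMM-scaled. Where a group held 1 to 3 counts in all, a ratio of counts per library size is given with a 95% exact interval that covers counting error only. Other settings were DESeq2 1.42.0, limma-voom (limma 3.58.1), RLE size factors, testing without the low-count filter, a fit of the 2 groups, TPM recomputed from counts and length, and each library left out. Exon overlaps were found with bedtools 2.31.1. Promoter sequences are RefSeq's.

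The comparison, the 45 lists and the genes were chosen with earlier results of these data known. The naming rule took genes past the threshold with a mean of at least 1 CPM, no overlap between the groups and no predicted name. Of these, the 15 largest rises, the 15 largest falls and up to 3 members per list and direction could be named. A further set, part of which is not reported here, was named whatever its result: Thrb, Thra, Dio1, Thrsp, Me1, Hr, Klf9, Gpd2, Cyp7a1, Cpt1a, Fasn, Scd1, Srebf1, Srebf2, Apoa1, Apob, Pck1, Pdk4, Fgf21, Plin2, Cidec, Col1a1, Col3a1 and Stk25. Genes outside the rule are marked in the text.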

Additional observations from a re-analysis of the deposited data

How the results depend on the processing

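The alternatives were tallied for 116 of the named genes that passed the test in HFD-Res against HFD-NS. Of these, 103 also passed in every one of the 12 alternatives that tested them (11 for Mup15 and Mup17). The other 13 lost the call in at least 1, and none of the 116 changed direction. Some genes named as exceptions or after their values were seen were not tallied. Among them are Hdac3, Idi1, Mvd, Lss, Gstt1, Ces2c, Mup4, Mup6 and Mmp12. Of these, Mmp12 lost its call on leaving out some libraries, as given above. Across the settings that kept all libraries, 1408 to 1837 genes were called, against 1709. Leaving out a library gave 1134 to 1467 called genes, 581 to 711 higher and 553 to 756 lower, with the lowest counts without HFD-Res library 34, where fewer samples were fitted. Among genes that did not pass, log2 fold changes changed sign on leaving out a library, ranging from -0.16 to 0.068 for Klf9, from -0.56 to 0.085 for Srebf1, from -0.024 to 0.23 for Plin2, from -0.0041 to 0.22 for Cpt1a and from -0.049 to 0.22 for Pck1. With limma-voom Pck1 was at -0.015. The cause was not tested. Cidec, Col3a1, Cyp7a1, Scd1 and Thrb, which did not pass, passed in at least 1 alternative. No paired analysis was possible because the groups compared share no replicate numbers. Low counts carry larger counting error, and a gene that did not pass is not shown to be unchanged.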
